A study of Mus musculus with 15 samples.

Results

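The 48 genes described here act in the G2 and M phases of the cell cycle. They encode A and B cyclins, mitotic kinases, spindle checkpoint proteins, parts of the anaphase-promoting machinery, kinetochore and spindle proteins, cytokinesis factors and condensin. They were chosen by gene name, with earlier results of these data known, and matched through Entrez identifiers. All 48 were found among the 27179 genes of the count table (Sgol1 under its current symbol, Sgo1). Messenger RNA was sequenced from sorted mouse CD4 T cells of 3 culture conditions named Tfh (T follicular helper), Th17 and Th1, with 5 libraries in each. Every group had the genotype B6.Cg-Ifngtm3.1Lky-Il17atm1.1Lky, whose altered Ifng and Il17a alleles were thus carried by all 3 conditions. In every group naive cells had been stimulated through CD3 and CD28 with antibodies bound to the plate, grown for 3.5 days and sorted. The design text gives the Tfh gate as CXCR5 positive and IL-17A negative and the Th1 gate as positive for interferon gamma. The sources used here do not give the Th17 gate, the polarising cytokines, the age of the mice or the number of animals.

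A dividing cell enters mitosis when cyclin B and Cdk1 form an active kinase, condenses its chromosomes and attaches them to a bipolar spindle. The spindle checkpoint holds back the anaphase-promoting complex until all kinetochores are attached, after which separase opens cohesin and the cell divides. Messages of these genes accumulate late in the cycle, and activated T cells divide rapidly, so such genes are widely used as markers of proliferation. Many of their promoters carry a cell cycle genes homology region, the CHR, bound by the MuvB core of the DREAM and MYBL2-FOXM1 complexes, and CCAAT boxes bound by NF-Y.

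The CHR was searched as TTTGAA or TTCGAA, and the CCAAT box as CCAAT, both on either strand, in windows of 250 bases before to 50 bases after each RefSeq transcription start. A window was held for 40 of the 48 genes. The windows of Cdk1, Ccnb1, Cdc20, Bub1 and Aurka are printed because these genes open the accounts of entry, anaphase, checkpoint and kinase genes below, and because they show the paired arrangement as well as an exception. All 5 lie on the minus strand of GRCm38.p6 and read 5′ to 3′ toward the gene, with matches in capitals (ATTGG is CCAAT on the other strand). They cover chr10:69352863-69353162 for Cdk1, chr13:100786437-100786736 for Ccnb1, chr4:118437294-118437593 for Cdc20, chr2:127831810-127832109 for Bub1 and chr2:172370521-172370820 for Aurka.
Cdk1: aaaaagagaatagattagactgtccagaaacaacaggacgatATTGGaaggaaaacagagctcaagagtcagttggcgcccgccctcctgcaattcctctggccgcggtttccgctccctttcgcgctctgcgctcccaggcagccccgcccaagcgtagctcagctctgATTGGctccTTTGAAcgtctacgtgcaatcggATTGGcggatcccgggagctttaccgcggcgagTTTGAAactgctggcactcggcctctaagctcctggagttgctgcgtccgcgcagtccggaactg
Ccnb1: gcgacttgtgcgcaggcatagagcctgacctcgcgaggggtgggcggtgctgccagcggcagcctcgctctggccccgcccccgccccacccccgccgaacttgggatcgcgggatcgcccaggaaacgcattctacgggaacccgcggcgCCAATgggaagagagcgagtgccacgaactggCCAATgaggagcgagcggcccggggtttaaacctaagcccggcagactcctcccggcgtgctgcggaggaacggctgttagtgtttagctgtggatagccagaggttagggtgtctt
Cdc20: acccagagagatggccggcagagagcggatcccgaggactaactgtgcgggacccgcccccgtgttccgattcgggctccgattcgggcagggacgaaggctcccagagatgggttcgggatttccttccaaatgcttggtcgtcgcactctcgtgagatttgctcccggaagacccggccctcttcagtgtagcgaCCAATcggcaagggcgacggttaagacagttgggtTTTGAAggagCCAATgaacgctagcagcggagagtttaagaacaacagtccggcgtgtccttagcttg
Bub1: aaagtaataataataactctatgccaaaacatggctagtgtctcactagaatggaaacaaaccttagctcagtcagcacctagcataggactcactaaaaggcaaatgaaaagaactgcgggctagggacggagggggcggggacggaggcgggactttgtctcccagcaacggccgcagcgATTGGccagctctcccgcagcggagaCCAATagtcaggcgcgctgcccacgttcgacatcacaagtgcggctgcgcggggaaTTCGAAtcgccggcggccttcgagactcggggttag
Aurka: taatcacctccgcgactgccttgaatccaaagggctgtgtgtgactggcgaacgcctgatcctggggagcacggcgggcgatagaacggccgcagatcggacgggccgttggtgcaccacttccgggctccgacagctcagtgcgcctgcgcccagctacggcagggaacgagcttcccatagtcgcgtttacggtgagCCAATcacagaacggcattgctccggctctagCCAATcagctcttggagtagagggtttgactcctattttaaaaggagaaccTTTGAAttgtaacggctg
Cdk1, Cdc20, Bub1 and Aurka hold both kinds of match, and Ccnb1 holds a pair of CCAAT boxes with no match to the CHR letters searched.

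Genes were counted as holding a match where any of their windows did, since some genes, Bub3, Ect2 and Prc1 among the members, have more than 1 window. A CHR match was present in 31 of the 40 genes (77.5%), against 21.6% of the 26985 other genes in the table. Within 50 bases of the start it was present in 29 genes (72.5%), against 6.02% of the other genes. A CCAAT match was present in 30 genes (75%), against 41.0%, and at least 2 were present in 19 (47.5%), against 13.2%. Both kinds were found in 28 genes (70.0%), against 9.56%. Counted by window, a CHR match stood in 19.2% of all 32851 promoter windows in the table, a CCAAT match in 37.4% and both in 7.52%. In Cdca8, a CHR and a CCAAT match shared a base. The 7 genes with neither were Birc5, Mad2l1, Ncaph, Nuf2, Nusap1, Plk4 and Pttg1. For 6 genes (Aurka, Cdc25b, Ect2, Kif2c, Pttg1 and Sgol1) the window's start lay over 100 bases inside the gene's RefSeq span, by 316 bases for Aurka and 1482 for Pttg1, so other starts of these genes were not searched. Among the other 34 genes, 26 held a CHR match and 26 a CCAAT match. These are letter matches and were not tested as binding sites. The other genes in the table were not limited to genes expressed in these cells.

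**Figure D1:**
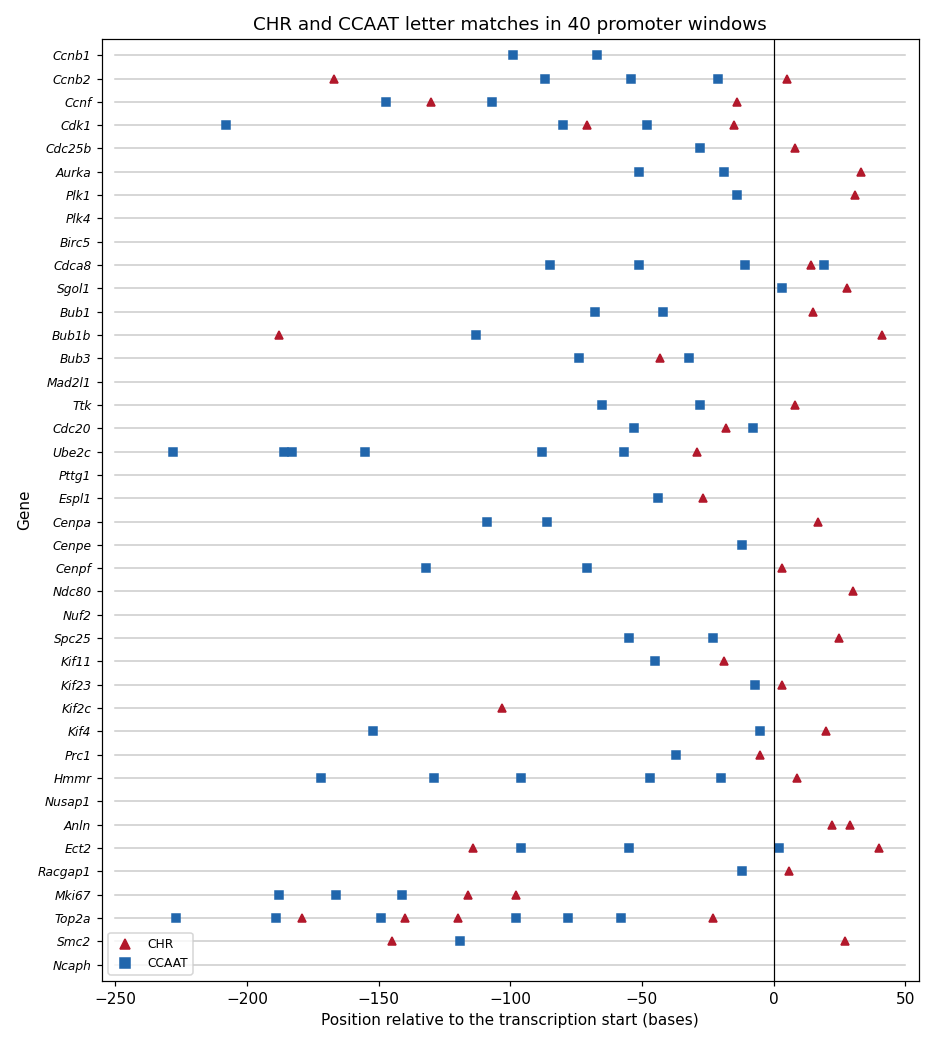
Positions of CHR matches (red triangles) and CCAAT matches (blue squares) in 40 promoter windows, 1 row per gene with its outermost window, with the x axis in bases from the transcription start (line at 0). CHR matches lie within 50 bases of the start in 29 of the 40 genes, and 7 rows are empty.

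The libraries held 4871468 to 25200382 counts. All 48 genes passed the filter on low counts, and the lowest count of any of them in any library was 72 (Cdc25c). Levels are given as CPM, counts scaled to a common library size with TMM factors. The labels were checked against lineage genes. Cxcr5 averaged 168.6 CPM in Tfh, 39.0 CPM in Th17 and 10.3 CPM in Th1, and Ifng 0.341 CPM, 0.510 CPM and 839.9 CPM in the same order. Il17a averaged 15.1 CPM in Tfh, 225 CPM in Th17 and 0.0595 CPM in Th1, while Il17f ranged over 3585 to 5345 CPM in Tfh, 10390.1 to 12000.4 CPM in Th17 and 1.38 to 14.9 CPM in Th1. The 7 T cell markers summed to 5645 to 6767 CPM in Tfh, 4794 to 5257 CPM in Th17 and 3323 to 4156 CPM in Th1, highest in Tfh. The B cell, myeloid and erythroid lists each summed to at most 3.09 CPM, with Lyz2 and Hbb-bs among the genes at or near 0. The 4 NK cell markers summed to 0.398 to 2.51 CPM in Tfh, 0.234 to 1.98 CPM in Th17 and 21.9 to 52.3 CPM in Th1, where Klrk1 carried most of it and Ncr1 and Klrb1c had no count. Cd8a had no count in Tfh, at most 0.937 CPM in Th17 and 1.121 to 10.4 CPM in Th1. Cd8b1 was found in every condition, at 5.22 to 11.3 CPM in Tfh, 6.19 to 15.8 CPM in Th17 and 6.17 to 15.7 CPM in Th1. It was not called in any comparison. The part of these genes' source cells in the comparisons with Th1 was not tested. Tfh 1, the shallowest library, stood apart on the second principal component of all genes (94.0, against -0.977 to 12.1 in the other Tfh libraries), and counts without it are given below.

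By their median fold change, mitotic genes were about 2-fold lower in Tfh cells than in either other condition, with a wider spread against Th1. Together the 48 genes took 0.539, 0.446, 0.517, 0.488 and 0.617% of the scaled counts in the Tfh libraries, 1.15, 1.07, 1.07, 0.946 and 0.998% in the Th17 libraries and 1.09, 0.980, 0.939, 0.884 and 1.02% in the Th1 libraries. The Tfh range overlapped neither other range, while those of Th17 and Th1 overlapped. In bulk samples, fewer dividing cells and less message per cell cannot be told apart. The mean of every one of the 48 genes was lowest in Tfh. In 32 of the 48, each Tfh library was below all 10 libraries of the other conditions, as in 5.56% of all 12591 genes tested.

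For Tfh over Th17, 45 of the 48 genes were called lower and 0 higher by edgeR's quasi-likelihood test (adjusted p under 0.05 over all genes), where 9.98% of all genes tested were called lower and 6.8% higher. The groups did not overlap for 42 of them, all lower in Tfh, against 8.72% lower and 5.74% higher of all genes. The median log2 fold change was -1.08, a 2.12-fold difference, with quartiles of -1.16 and -0.95 and a range of -1.38 (Bub1) to -0.32 (Smc4), while the median over all genes tested was -0.01. Smc4, Pttg1 and Cdc25b were not called. For Tfh over Th1, 42 were called lower and 0 higher, where 25.2% of all genes were called lower and 24.1% higher. Of these, 33 did not overlap, all lower in Tfh, against 18.2% lower and 16.1% higher of all genes. The median was -1.01, a 2.01-fold difference, with quartiles of -1.20 and -0.69 and a range of -1.71 (Pttg1) to -0.13 (Racgap1). The median over all genes was -0.01. A difference of at least 2-fold was seen for 24 of the 48 against Th1 and for 33 against Th17. Smc4, Smc2, Spc25, Ccnf, Kif20a and Racgap1 were not called. Without Tfh 1, 44 genes were called lower than in Th17 and 42 lower than in Th1. Both comparisons use the same Tfh libraries. In both, 40 genes were called.

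**Figure D2:**
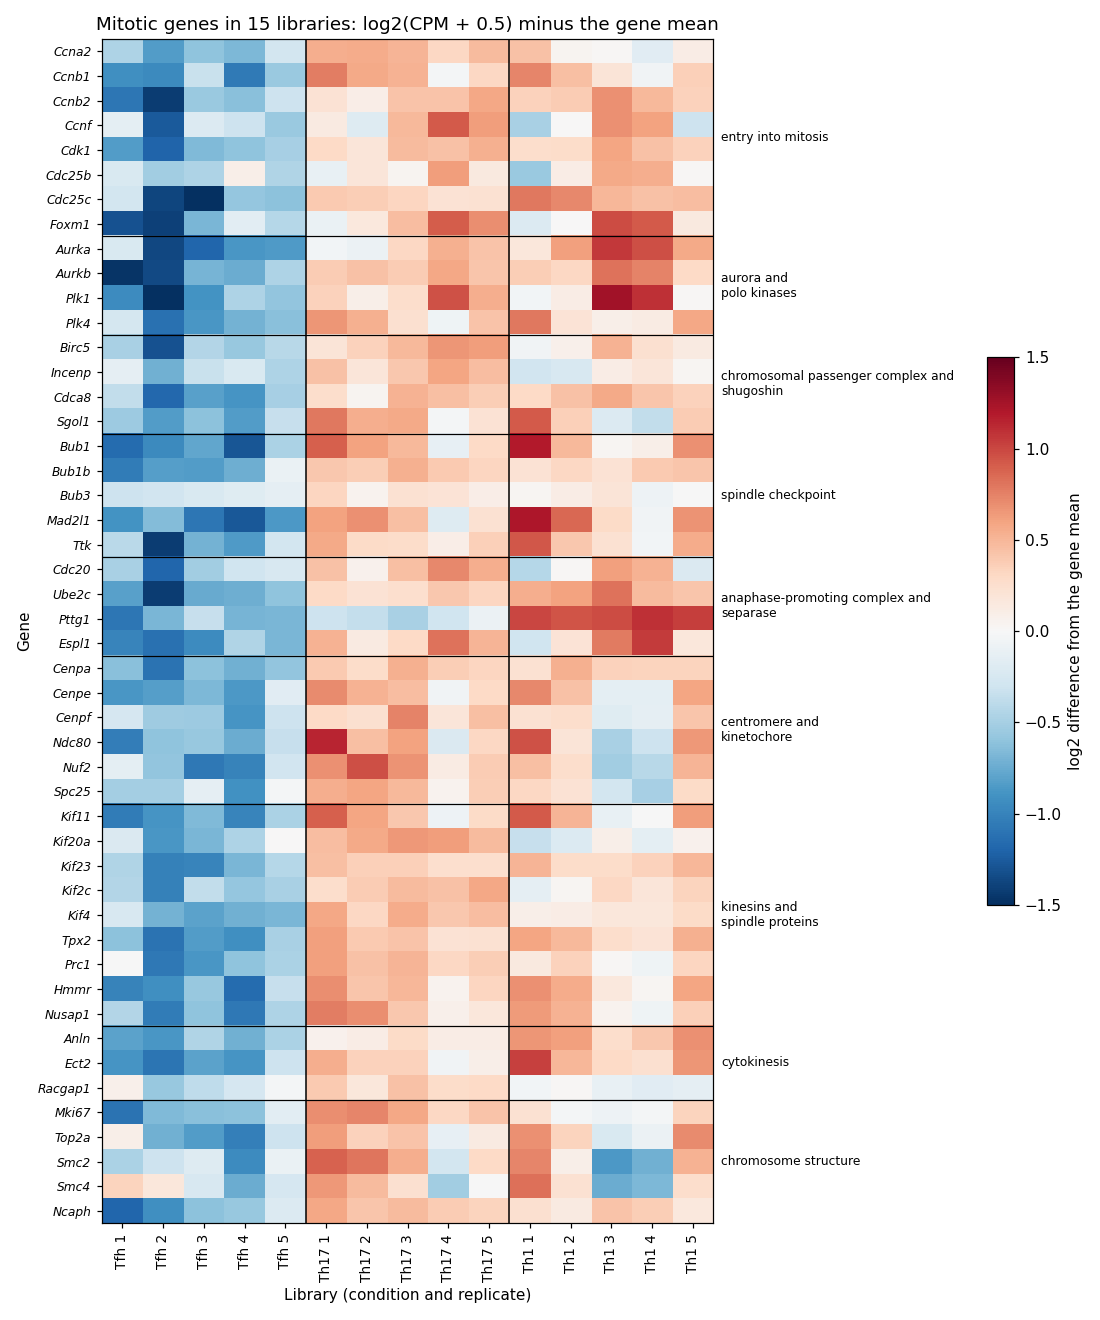
Log2(CPM + 0.5) of each of the 48 genes minus that gene's mean over the 15 libraries, with genes grouped by role and libraries ordered Tfh, Th17, Th1 (red is above the gene's mean, blue below; the scale ends at 1.5). The 5 Tfh columns are blue for nearly all genes, and Pttg1 is the row in which all 5 Th17 libraries are blue as well.

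Of the 8 genes of mitotic entry, 7 were called lower in Tfh than in Th17 and 7 lower than in Th1. Cdk1, the kinase that drives entry into mitosis, was counted at 109, 84.0, 123, 128 and 138 CPM in the Tfh libraries, 239, 220.5, 269.6, 263 and 281 CPM in the Th17 libraries and 234, 235, 293, 263 and 247 CPM in the Th1 libraries. Every Tfh library was below every other library, and the Th17 and Th1 libraries covered similar ranges. Cdk1 had log2 fold changes of -1.13 ± 0.13 (SE, edgeR adjusted p = 1.28e-05) for Tfh over Th17 and -1.13 ± 0.13 (SE, edgeR adjusted p = 1.25e-06) for Tfh over Th1. Ccnb1, the cyclin B1 partner of Cdk1, stood at 65.5, 64.0, 98.0, 59.4 and 84.2 CPM in the Tfh libraries, 212, 184, 178, 122 and 154 CPM in the Th17 libraries and 207, 170.4, 142, 119 and 159.6 CPM in the Th1 libraries. Its Tfh libraries too were below all others. Ccnb1 had log2 fold changes of -1.19 ± 0.18 (SE, edgeR adjusted p = 0.000164) for Tfh over Th17 and -1.10 ± 0.18 (SE, edgeR adjusted p = 5.84e-05) for Tfh over Th1. Foxm1, a transcription factor of late cell cycle genes, was found at 40.4, 37.7, 62.0, 89.9 and 74.4 CPM in the Tfh libraries, 94.0, 112, 138, 189 and 163 CPM in the Th17 libraries and 87.2, 101, 198, 191 and 111 CPM in the Th1 libraries. Its highest Tfh library, Tfh 4, was just above Th1 1, the lowest Th1 library, and below all Th17 libraries. Foxm1 had log2 fold changes of -1.19 ± 0.28 (SE, edgeR adjusted p = 0.00583) for Tfh over Th17 and -1.17 ± 0.28 (SE, edgeR adjusted p = 0.00177) for Tfh over Th1. Ccnb2, a further B cyclin, averaged 133 ± 38.9 CPM in Tfh, 288 ± 37.2 CPM in Th17 and 307 ± 32.2 CPM in Th1 (SD, n = 5 each). Ccna2, the A cyclin of S and G2 phase, averaged 206 ± 31.0 CPM in Tfh, 424 ± 28.2 CPM in Th17 and 325 ± 52.6 CPM in Th1 (SD, n = 5 each), and Cdc25c, a phosphatase that activates Cdk1, 15.4 ± 5.76 CPM in Tfh, 33.9 ± 1.92 CPM in Th17 and 41.2 ± 4.75 CPM in Th1. All 3 were called lower in Tfh in both comparisons, with log2 fold changes between -1.43 and -0.66. The span of Foxm1 overlaps that of Tex52, and the span of Ccna2 that of Exosc9, so their counts are uncertain if strand was not used.

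The remaining entry genes were Cdc25b and Ccnf. Alternatives listed for single genes here and below leave out fits with a replicate block, described below, except for Smc4. Cdc25b, the phosphatase that starts activation of Cdk1, was counted at 121, 98.9, 103, 151 and 103 CPM in the Tfh libraries, 131, 161, 146, 219 and 156 CPM in the Th17 libraries and 96.3, 153, 210.0, 207 and 144 CPM in the Th1 libraries. The 3 ranges overlapped, with Tfh 4 above several libraries of the other conditions. Cdc25b had log2 fold changes of -0.49 ± 0.20 (SE, edgeR adjusted p = 0.0985) for Tfh over Th17 and -0.49 ± 0.20 (SE, edgeR adjusted p = 0.0462) for Tfh over Th1. The call against Th1 was lost with scaling by library size alone, in limma-voom, in a fit of the compared conditions alone or without Th1 2, Th1 3, Th1 4, Th17 2, Tfh 1, Tfh 2, Tfh 3 or Tfh 5 (adjusted p of 0.0527 to 0.112), and the difference from Th17 was called in a fit of the compared conditions alone, after a correction for GC content or without Th1 1 (adjusted p of 0.00354 to 0.0466). Ccnf, cyclin F, a substrate receptor of an SCF ubiquitin ligase, was found at 41.8, 19.1, 39.9, 37.2 and 31.2 CPM in the Tfh libraries, 50.8, 40.4, 65.1, 88.3 and 71.7 CPM in the Th17 libraries and 32.9, 46.6, 74.5, 70.6 and 37.1 CPM in the Th1 libraries. Tfh 1 was above Th17 2, and Tfh 1, Tfh 3 and Tfh 4 were above Th1 1 and Th1 5. Ccnf had log2 fold changes of -0.90 ± 0.26 (SE, edgeR adjusted p = 0.0237) for Tfh over Th17 and -0.63 ± 0.26 (SE, edgeR adjusted p = 0.0541) for Tfh over Th1. The call against Th17 was lost without Th17 3, Th17 4, Th17 5, Tfh 2 or Tfh 5 (adjusted p of 0.0529 to 0.067), and the difference from Th1 was called with relative log expression scaling, with a filter at 50 counts, in DESeq2, after a correction for GC content or without Th1 1, Th1 5, Th17 2, Th17 4 or Tfh 1 (adjusted p of 0.0171 to 0.0481). The Ccnf difference between Th17 and Th1 itself was not called, at 0.27 ± 0.26 (SE, edgeR adjusted p = 0.453).

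All 4 aurora and polo kinases were lower in Tfh in both comparisons. Aurka, the aurora kinase of centrosomes and spindle poles, was counted at 70.2, 31.8, 35.8, 44.8 and 45.3 CPM in the Tfh libraries, 79.8, 77.4, 102, 119 and 111 CPM in the Th17 libraries and 92.9, 126, 172, 161 and 123 CPM in the Th1 libraries. Each Tfh library was below all others. Aurka had log2 fold changes of -1.11 ± 0.21 (SE, edgeR adjusted p = 0.00122) for Tfh over Th17 and -1.57 ± 0.21 (SE, edgeR adjusted p = 6.89e-06) for Tfh over Th1. Part of its span overlaps that of Cstf1, so its counts are uncertain if strand was not used. Aurkb, the kinase of the chromosomal passenger complex, stood at 61.1, 66.1, 105, 102 and 123 CPM in the Tfh libraries, 221, 231, 222, 254 and 228 CPM in the Th17 libraries and 219, 212, 299, 285 and 209 CPM in the Th1 libraries. Its Tfh libraries lay far below the lowest library of either other condition. Aurkb had log2 fold changes of -1.34 ± 0.18 (SE, edgeR adjusted p = 4.23e-05) for Tfh over Th17 and -1.42 ± 0.18 (SE, edgeR adjusted p = 2.60e-06) for Tfh over Th1. Plk1, the polo kinase that acts throughout mitosis, was found at 35.4, 19.8, 36.8, 49.9 and 45.3 CPM in the Tfh libraries, 87.7, 73.0, 82.9, 134 and 101 CPM in the Th17 libraries and 66.9, 74.6, 165, 148 and 69.7 CPM in the Th1 libraries. Th1 3 and Th1 4 stood far above the other Th1 libraries, and the Tfh range was below all of them. Plk1 had log2 fold changes of -1.35 ± 0.28 (SE, edgeR adjusted p = 0.00263) for Tfh over Th17 and -1.48 ± 0.28 (SE, edgeR adjusted p = 0.000272) for Tfh over Th1. Plk4, the kinase that starts centriole duplication, was counted at 54.9, 30.2, 35.8, 40.4 and 42.8 CPM in the Tfh libraries, 105, 96.0, 78.4, 63.0 and 89.1 CPM in the Th17 libraries and 115, 76.5, 70.4, 72.1 and 99.3 CPM in the Th1 libraries. Its Tfh libraries were below all others. Plk4 had log2 fold changes of -1.08 ± 0.19 (SE, edgeR adjusted p = 0.000539) for Tfh over Th17 and -1.09 ± 0.19 (SE, edgeR adjusted p = 9.59e-05) for Tfh over Th1.

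The 4 genes of the chromosomal passenger complex and shugoshin were lower in Tfh in both comparisons. Birc5, or survivin, which holds the complex at centromeres, was counted at 96.5, 54.5, 100.2, 91.5 and 101 CPM in the Tfh libraries, 155, 173, 190.0, 216 and 209 CPM in the Th17 libraries and 131, 143, 194, 160.4 and 149.6 CPM in the Th1 libraries. Each Tfh library was below all others, and Tfh 2 was the lowest. Birc5 had log2 fold changes of -1.09 ± 0.17 (SE, edgeR adjusted p = 0.000164) for Tfh over Th17 and -0.81 ± 0.16 (SE, edgeR adjusted p = 0.000483) for Tfh over Th1. Cdca8, or borealin, averaged 98.5 ± 21.7 CPM in Tfh, 205 ± 25.3 CPM in Th17 and 218 ± 15.6 CPM in Th1 (SD, n = 5 each), and Sgol1, the shugoshin that protects centromeric cohesin, 35.5 ± 5.33 CPM in Tfh, 75.3 ± 16.4 CPM in Th17 and 67.5 ± 24.7 CPM in Th1. Incenp, the scaffold of the complex, averaged 83.5 ± 12.9 CPM in Tfh, 144 ± 14.3 CPM in Th17 and 105 ± 15.1 CPM in Th1 (SD, n = 5 each). The Incenp log2 fold change was -0.79 ± 0.14 (SE, edgeR adjusted p = 0.000569) for Tfh over Th17, and against Th1 it was -0.34 ± 0.14 (SE, edgeR adjusted p = 0.0496). The second of these calls was lost with scaling by library size alone, with no filter on low counts, in a fit of the compared conditions alone or without Th1 3, Th1 4, Th1 5, Th17 1, Th17 2, Tfh 2, Tfh 3 or Tfh 5 (adjusted p of 0.051 to 0.133).

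All 5 spindle checkpoint genes were lower in Tfh in both comparisons, with large and small differences side by side. Bub1, a checkpoint kinase at kinetochores, was counted at 36.3, 41.5, 47.0, 33.1 and 58.2 CPM in the Tfh libraries, 152, 123, 114, 74.3 and 100.0 CPM in the Th17 libraries and 186, 114, 83.2, 86.4 and 131 CPM in the Th1 libraries. Every Tfh library was below all others, whereas the Th17 and Th1 libraries spread widely. Bub1 had log2 fold changes of -1.38 ± 0.23 (SE, edgeR adjusted p = 0.000387) for Tfh over Th17 and -1.47 ± 0.23 (SE, edgeR adjusted p = 3.62e-05) for Tfh over Th1. Mad2l1, which encodes the checkpoint protein Mad2, stood at 108, 128, 95.1, 83.5 and 111 CPM in the Tfh libraries, 306, 325, 276, 177 and 236 CPM in the Th17 libraries and 470.1, 368, 247, 194 and 324 CPM in the Th1 libraries. Its Tfh libraries were again below all others. Mad2l1 had log2 fold changes of -1.33 ± 0.21 (SE, edgeR adjusted p = 0.000276) for Tfh over Th17 and -1.61 ± 0.22 (SE, edgeR adjusted p = 5.63e-06) for Tfh over Th1. Bub3, a Bub1 and BubR1 partner that also has roles outside the checkpoint, was found at 242, 246, 258, 266 and 274 CPM in the Tfh libraries, 377, 314, 353, 347 and 323 CPM in the Th17 libraries and 308, 325, 346, 286 and 299 CPM in the Th1 libraries. The 5 Tfh libraries sat close together just under the others. Bub3 had log2 fold changes of -0.41 ± 0.10 (SE, edgeR adjusted p = 0.00711) for Tfh over Th17 and -0.28 ± 0.10 (SE, edgeR adjusted p = 0.0246) for Tfh over Th1. The Bub3 call against Th1 was lost with scaling by library size alone, with no filter on low counts or without Th1 2 (adjusted p of 0.0512 to 0.0693). Bub1b, which encodes BubR1, averaged 60.0 ± 16.9 CPM in Tfh, 127 ± 6.89 CPM in Th17 and 119 ± 7.67 CPM in Th1 (SD, n = 5 each), and Ttk, the Mps1 kinase, 27.6 ± 8.02 CPM in Tfh, 55.8 ± 6.86 CPM in Th17 and 61.1 ± 15.9 CPM in Th1.

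**Figure D3:**
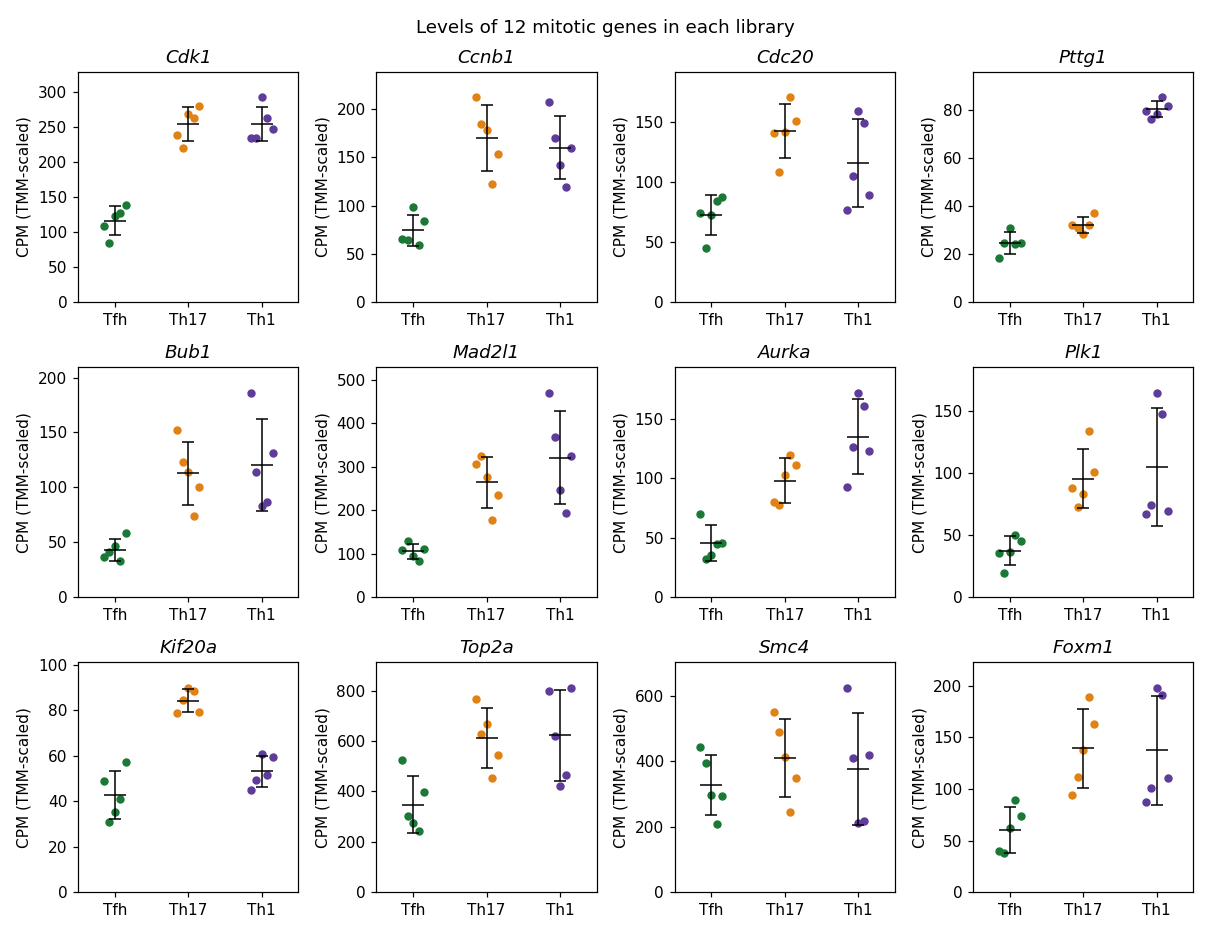
CPM of 12 mitotic genes in each of 15 libraries (points), with the mean and SD of each condition (bars, n = 5), Tfh left of Th17 and Th1, each axis starting at 0. The Tfh mean is lowest in every panel, Pttg1 is high in Th1 and not in Th17, and Smc4 overlaps across all 3 conditions.

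Among the 4 anaphase genes, Cdc20, Ube2c and Espl1 were called lower in Tfh in both comparisons, and Pttg1 was called lower than in Th1 but not than in Th17. Cdc20, the activator of the anaphase-promoting complex, was counted at 74.0, 45.3, 72.2, 84.2 and 87.8 CPM in the Tfh libraries, 141, 108, 141, 170.5 and 151 CPM in the Th17 libraries and 76.8, 105, 159, 149 and 89.2 CPM in the Th1 libraries. Tfh was below all Th17 libraries, while Tfh 4 and Tfh 5 were above Th1 1. Cdc20 had log2 fold changes of -0.97 ± 0.21 (SE, edgeR adjusted p = 0.00336) for Tfh over Th17 and -0.67 ± 0.21 (SE, edgeR adjusted p = 0.0124) for Tfh over Th1. Its span overlaps that of Elovl1. Ube2c, the ubiquitin-conjugating enzyme of the complex, averaged 346 ± 67.7 CPM in Tfh, 762 ± 37.8 CPM in Th17 and 922 ± 102 CPM in Th1 (SD, n = 5 each), and Espl1, or separase, 23.8 ± 4.63 CPM in Tfh, 58.8 ± 10.6 CPM in Th17 and 58.4 ± 21.7 CPM in Th1. Pttg1 (chr11:43420244-43427463), or securin, the inhibitor of separase, was found at 18.4, 24.4, 31.0, 24.2 and 24.5 CPM in the Tfh libraries, 31.8, 30.8, 28.2, 32.1 and 37.2 CPM in the Th17 libraries and 79.6, 76.3, 78.3, 85.1 and 81.7 CPM in the Th1 libraries. The Th1 libraries stood far above both other conditions, and Tfh 3 lay inside the Th17 range. Pttg1 had log2 fold changes of -0.38 ± 0.14 (SE, edgeR adjusted p = 0.0703) for Tfh over Th17 and -1.71 ± 0.14 (SE, edgeR adjusted p = 1.14e-08) for Tfh over Th1. For Th17 over Th1 it was -1.32 ± 0.14 (SE, edgeR adjusted p = 4.36e-07), a 2.502-fold difference. The difference of Tfh from Th17 was called in DESeq2 or without Tfh 3 (adjusted p of 0.0318 to 0.0455).

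The 6 centromere and kinetochore genes were all lower in Tfh than in Th17, and 5 were lower than in Th1. Cenpa, the centromeric histone H3 variant, was counted at 156, 112, 157, 146 and 159 CPM in the Tfh libraries, 316, 291, 349, 310.3 and 299.99 CPM in the Th17 libraries and 283, 348, 307, 303 and 304 CPM in the Th1 libraries. The Tfh libraries were below all others, and the Th17 and Th1 ranges overlapped. Cenpa had log2 fold changes of -1.10 ± 0.12 (SE, edgeR adjusted p = 3.69e-06) for Tfh over Th17 and -1.08 ± 0.12 (SE, edgeR adjusted p = 3.31e-07) for Tfh over Th1. Nuf2, a subunit of the NDC80 complex that binds microtubules, stood at 40.6, 29.7, 21.1, 22.2 and 36.8 CPM in the Tfh libraries, 72.5, 88.5, 72.0, 49.1 and 58.9 CPM in the Th17 libraries and 61.8, 54.3, 31.2, 33.7 and 64.4 CPM in the Th1 libraries. Tfh was below all Th17 libraries and overlapped Th1. Nuf2 had log2 fold changes of -1.19 ± 0.24 (SE, edgeR adjusted p = 0.00197) for Tfh over Th17 and -0.71 ± 0.24 (SE, edgeR adjusted p = 0.0198) for Tfh over Th1. The Nuf2 call against Th1 was lost without Th1 5 or Tfh 4 (adjusted p of 0.052 to 0.0524). Spc25, of the same complex, was found at 56.8, 56.6, 73.8, 42.9 and 79.6 CPM in the Tfh libraries, 119, 123, 113, 84.1 and 105 CPM in the Th17 libraries and 101, 93.9, 67.0, 57.4 and 98.9 CPM in the Th1 libraries. Tfh was below all Th17 libraries and overlapped the lower Th1 libraries. Spc25 had log2 fold changes of -0.81 ± 0.19 (SE, edgeR adjusted p = 0.006) for Tfh over Th17 and -0.43 ± 0.19 (SE, edgeR adjusted p = 0.0677) for Tfh over Th1. The Spc25 difference from Th1 was called with relative log expression scaling, with a filter at 50 counts, in DESeq2, after a correction for GC content or without Th1 3, Th1 4, Th17 4, Tfh 3 or Tfh 5 (adjusted p of 0.00245 to 0.0476). Ndc80 averaged 28.3 ± 4.95 CPM in Tfh, 64.4 ± 22.4 CPM in Th17 and 55.1 ± 23.3 CPM in Th1 (SD, n = 5 each), Cenpe, a kinetochore kinesin, 69.0 ± 15.99 CPM in Tfh, 145 ± 27.5 CPM in Th17 and 138 ± 37.8 CPM in Th1, and Cenpf, a large kinetochore protein, 36.8 ± 6.18 CPM in Tfh, 68.4 ± 11.5 CPM in Th17 and 57.0 ± 10.2 CPM in Th1.

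All 9 kinesins and spindle proteins were lower in Tfh than in Th17, and 8 were lower than in Th1. Kif11, the kinesin that pushes spindle poles apart, was counted at 94.0, 105, 123, 97.9 and 140.3 CPM in the Tfh libraries, 365, 295, 258, 185 and 238 CPM in the Th17 libraries and 369.9, 278, 181, 193 and 301 CPM in the Th1 libraries. Every Tfh library was below all others. Kif11 had log2 fold changes of -1.26 ± 0.21 (SE, edgeR adjusted p = 0.000321) for Tfh over Th17 and -1.24 ± 0.21 (SE, edgeR adjusted p = 6.56e-05) for Tfh over Th1. Kif20a, a kinesin of the central spindle, stood at 49.1, 30.8, 35.1, 41.2 and 57.1 CPM in the Tfh libraries, 78.7, 84.7, 89.9, 88.5 and 79.3 CPM in the Th17 libraries and 44.9, 49.3, 60.7, 51.6 and 59.6 CPM in the Th1 libraries. Tfh was below all Th17 libraries and overlapped Th1. Kif20a had log2 fold changes of -0.98 ± 0.16 (SE, edgeR adjusted p = 0.000296) for Tfh over Th17 and -0.32 ± 0.16 (SE, edgeR adjusted p = 0.103) for Tfh over Th1. The Kif20a difference from Th1 was called after a correction for GC content or without Tfh 5 (adjusted p of 0.0193 to 0.0498), and its span overlaps those of Brd8 and Cdc23. Log2 fold changes of the other 7 genes lay between -1.18 (Hmmr) and -0.999 (Kif2c) against Th17, and between -1.21 (Tpx2) and -0.73 (Kif2c and Prc1) against Th1. Tpx2, which activates aurora A on the spindle, averaged 139 ± 23.7 CPM in Tfh, 312 ± 36.2 CPM in Th17 and 321 ± 37.8 CPM in Th1 (SD, n = 5 each), Nusap1, a microtubule-bundling protein, 247 ± 51.7 CPM in Tfh, 549.7 ± 118 CPM in Th17 and 504 ± 103 CPM in Th1, and Kif23, a central spindle motor, 65.5 ± 12.7 CPM in Tfh, 134 ± 7.71 CPM in Th17 and 139 ± 11.6 CPM in Th1. Nusap1 shares part of its span with Oip5, and Prc1 with Rccd1.

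Of the 3 cytokinesis genes, all were lower in Tfh than in Th17 and Anln and Ect2 were lower than in Th1. Anln, or anillin, the scaffold of the contractile ring, was counted at 30.2, 28.8, 38.6, 32.0 and 38.2 CPM in the Tfh libraries, 55.7, 57.3, 65.0, 57.6 and 57.6 CPM in the Th17 libraries and 84.5, 81.4, 63.6, 70.6 and 85.7 CPM in the Th1 libraries. The Tfh libraries were below all others, and most Th1 libraries exceeded most Th17 libraries. Anln had log2 fold changes of -0.80 ± 0.13 (SE, edgeR adjusted p = 0.000367) for Tfh over Th17 and -1.20 ± 0.13 (SE, edgeR adjusted p = 6.17e-07) for Tfh over Th1. Racgap1, a GTPase-activating protein of the central spindle, stood at 146, 92.7, 106, 115 and 134 CPM in the Tfh libraries, 181, 155, 187, 167 and 169.7 CPM in the Th17 libraries and 134, 139, 127, 122 and 125 CPM in the Th1 libraries. Tfh was below every Th17 library and spanned the Th1 range. Racgap1 had log2 fold changes of -0.53 ± 0.13 (SE, edgeR adjusted p = 0.00605) for Tfh over Th17 and -0.13 ± 0.13 (SE, edgeR adjusted p = 0.431) for Tfh over Th1. Ect2, a guanine nucleotide exchange factor that acts at the division plane, averaged 45.0 ± 10.01 CPM in Tfh, 93.1 ± 15.1 CPM in Th17 and 115 ± 26.8 CPM in Th1 (SD, n = 5 each).

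Among the 5 chromosome structure genes, 4 were called lower in Tfh than in Th17 and 3 lower than in Th1. Smc4 was not called in either comparison, and Smc2 was not called against Th1. Mki67, the Ki-67 antigen that coats mitotic chromosomes, was counted at 501, 683, 699, 702 and 969 CPM in the Tfh libraries, 1752, 1795, 1615, 1335 and 1454 CPM in the Th17 libraries and 1267, 1058, 1028, 1055 and 1361 CPM in the Th1 libraries. The Tfh libraries were below all others, and Tfh 5 was nearest to the Th1 range. Mki67 had log2 fold changes of -1.16 ± 0.15 (SE, edgeR adjusted p = 3.82e-05) for Tfh over Th17 and -0.70 ± 0.15 (SE, edgeR adjusted p = 0.000866) for Tfh over Th1. Top2a, the topoisomerase that untangles sister DNA, stood at 524, 301, 276, 242 and 398 CPM in the Tfh libraries, 765, 626, 667, 452 and 543 CPM in the Th17 libraries and 797, 621, 423, 464 and 811 CPM in the Th1 libraries. Tfh 1 exceeded Th17 4 and 2 Th1 libraries, and the other Tfh libraries were below all of them. Top2a had log2 fold changes of -0.81 ± 0.22 (SE, edgeR adjusted p = 0.0164) for Tfh over Th17 and -0.84 ± 0.22 (SE, edgeR adjusted p = 0.0042) for Tfh over Th1. The Top2a call against Th17 was lost without Tfh 3 (adjusted p = 0.0539). Smc4 (chr3:69004738-69034623), the condensin subunit that pairs with Smc2, was found at 444, 395, 298, 209 and 295 CPM in the Tfh libraries, 550.1, 489.5, 413, 245 and 349 CPM in the Th17 libraries and 625, 411, 210.4, 219 and 420.4 CPM in the Th1 libraries. The ranges of all 3 conditions overlapped widely. Smc4 had log2 fold changes of -0.32 ± 0.28 (SE, edgeR adjusted p = 0.498) for Tfh over Th17 and -0.20 ± 0.28 (SE, edgeR adjusted p = 0.584) for Tfh over Th1. Both Smc4 differences were called only after a correction for GC content combined with a replicate block, described below (edgeR adjusted p of 0.00865 and 0.0498). Smc2, the other core condensin subunit, was counted at 107, 120.3, 131, 77.4 and 140.2 CPM in the Tfh libraries, 276, 261, 219, 124 and 185 CPM in the Th17 libraries and 248.78, 159.9, 82.1, 90.6 and 216 CPM in the Th1 libraries. Tfh overlapped Th17 through Th17 4 and overlapped Th1 widely. Smc2 had log2 fold changes of -0.88 ± 0.28 (SE, edgeR adjusted p = 0.0384) for Tfh over Th17 and -0.46 ± 0.28 (SE, edgeR adjusted p = 0.185) for Tfh over Th1. The Smc2 call against Th17 was lost in limma-voom or without Th17 1, Th17 2, Th17 3, Th17 5, Tfh 1, Tfh 2, Tfh 3, Tfh 4 or Tfh 5 (adjusted p of 0.052 to 0.0987), and the difference from Th1 was called after a correction for GC content or without Th1 3 (adjusted p of 0.00409 to 0.049). Ncaph, the kleisin of condensin I, averaged 79.6 ± 20.7 CPM in Tfh, 172 ± 11.6 CPM in Th17 and 152 ± 13.7 CPM in Th1 (SD, n = 5 each) and was called lower in Tfh in both comparisons.

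**Figure D4:**
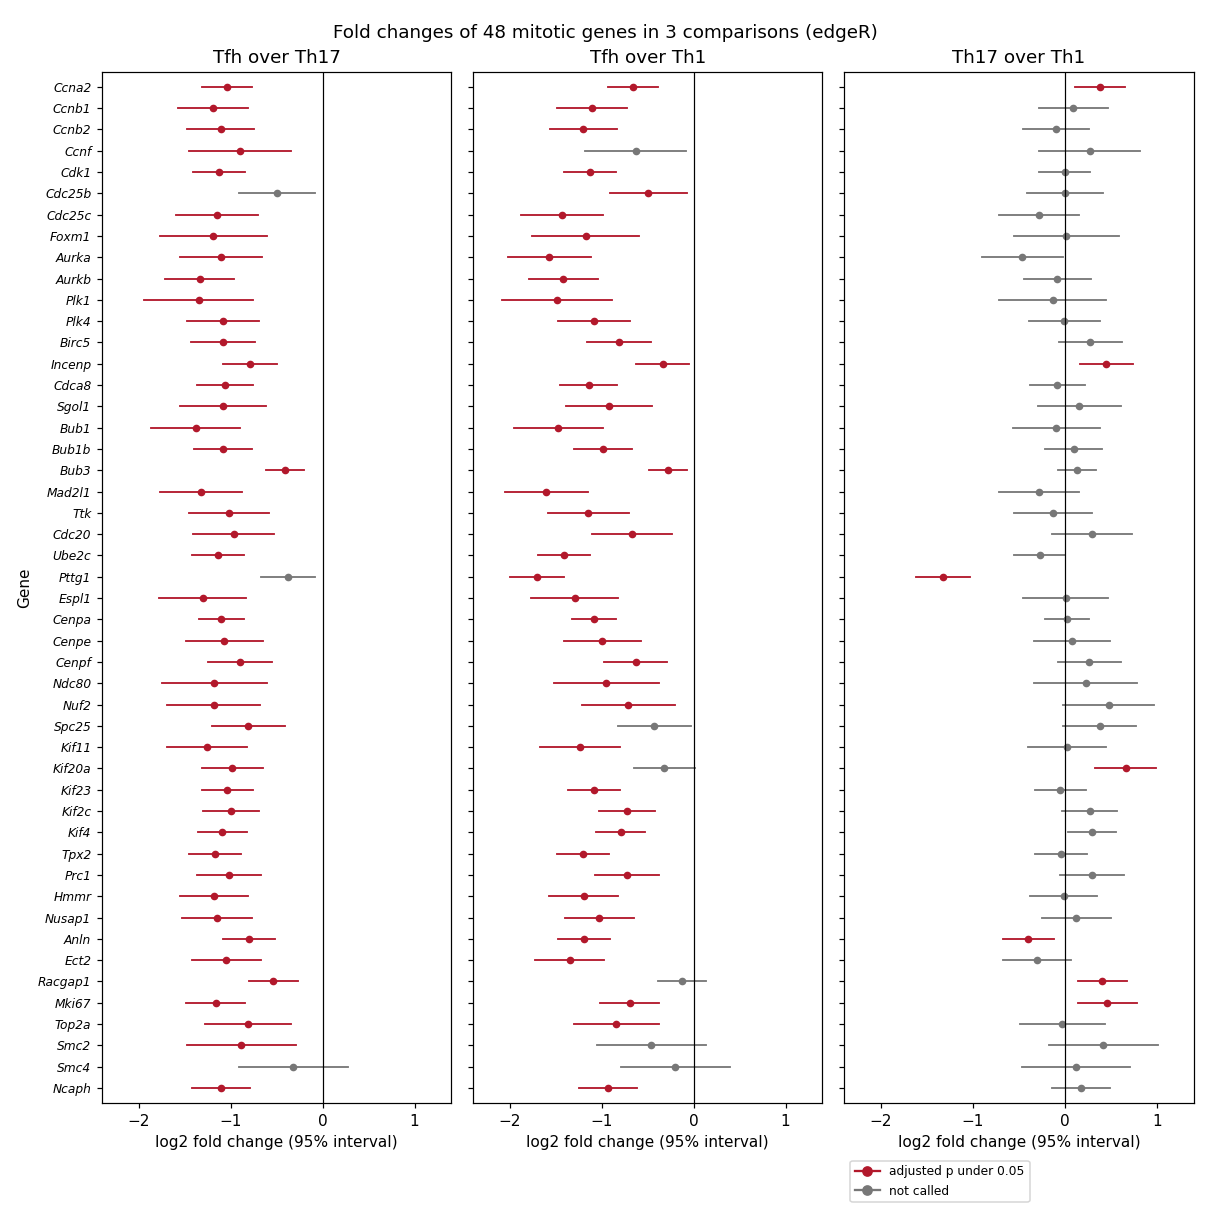
Log2 fold changes of the 48 genes with 95% intervals (edgeR) for Tfh over Th17, Tfh over Th1 and Th17 over Th1, red where the adjusted p was under 0.05 and grey otherwise. Points lie near -1 in the first panel, spread more widely around -1 in the second and lie around 0 in the third, where Pttg1 lies far left.

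Th17 and Th1 cells held similar levels of most of these genes. For Th17 over Th1, 2 of the 48 were called lower and 5 higher, where 17.8% of all genes tested were lower and 19% higher (36.9% in either direction), and 41 were not called. The median log2 fold change was 0.05, beside 0.03 over all genes. The 95% interval lay within 2-fold either way for 46 genes and within 1.5-fold for 24. Cdk1 had an interval of -0.28 to 0.28 and Cdc25b of -0.41 to 0.41. The lower genes were Pttg1 and Anln, the second with a log2 fold change of -0.40 ± 0.13 (SE, edgeR adjusted p = 0.0243). The higher genes were Kif20a at 0.66 ± 0.16 (SE, edgeR adjusted p = 0.00278), Mki67 at 0.46 ± 0.15 (SE, edgeR adjusted p = 0.0217), Incenp at 0.45 ± 0.14 (SE, edgeR adjusted p = 0.0142), Racgap1 at 0.41 ± 0.13 (SE, edgeR adjusted p = 0.0149) and Ccna2 at 0.38 ± 0.13 (SE, edgeR adjusted p = 0.0255). Apart from those of Pttg1 and Kif20a, each of these calls was lost without at least 1 single library. Ccna2 lost its call with relative log expression scaling, with a filter at 50 counts or without Th1 2, Th1 3, Th1 4, Th1 5, Th17 1, Th17 2, Th17 3, Th17 5 or Tfh 3 (adjusted p of 0.0501 to 0.126), Mki67 without Th1 2, Th1 3, Th1 4, Th17 1, Th17 2 or Th17 3 (adjusted p of 0.0506 to 0.0789), Racgap1 without Th1 4, Th1 5 or Th17 3 (adjusted p of 0.0574 to 0.0735), Anln without Th1 2 or Th17 1 (adjusted p = 0.0548) and Incenp without Th17 4 (adjusted p = 0.0547). Of the genes called lower in Tfh than in Th17 but not than in Th1, Kif20a and Racgap1 were also called higher in Th17 than in Th1. For the others, Smc2, Spc25 and Ccnf, the Th17 over Th1 difference was not called. The Th17 and Th1 libraries did not overlap for 3 genes lower and 4 higher in Th17, against 14.3% and 14.5% of all genes. Among those, Cdc25c and Ube2c (lower) and Kif4 (higher) were not called.

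Per kilobase of merged exons, the most abundant member was Ube2c in every condition, with 133 CPM per kb in Tfh, 293 CPM per kb in Th17 and 355 CPM per kb in Th1. In Tfh it was followed by Ccnb2 at 87.0 and Mki67 at 70.6 CPM per kb. Cenpf was the lowest, at 2.38 CPM per kb in Tfh, 4.44 CPM per kb in Th17 and 3.69 CPM per kb in Th1. Libraries of 1 condition varied by a median coefficient of variation over the 48 genes of 22% in Tfh, 13.7% in Th17 and 18.5% in Th1.

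Within conditions, members moved apart by base composition. Exonic GC content ranged from 39.7% (Smc2) to 56.1% (Espl1), with a median of 46.3%, beside 49.6% over all genes tested. Across the 48 genes, the rank correlation of GC content with a gene's deviation from its condition mean ran from -0.92 in Th1 1 to 0.91 in Th17 4. The same correlation over all genes ran from -0.65 in Th1 1 to 0.70 in Th1 4. In Th1 1 the 12 members of lowest GC content, such as Mad2l1 and Bub1, deviated by a median log2 of 0.58, and the 12 of highest, such as Plk1 and Foxm1, by -0.52. In Th1 3 these medians were -0.45 and 0.39. After a correction for GC content in each library, 46 genes were called lower in Tfh than in Th17 and 46 lower than in Th1, and for Th17 over Th1 the calls became 5 lower and 9 higher. The calls added there were Aurka, Mad2l1 and Ect2 among the lower and Cdc20, Nuf2, Spc25 and Smc2 among the higher.

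**Figure D5:**
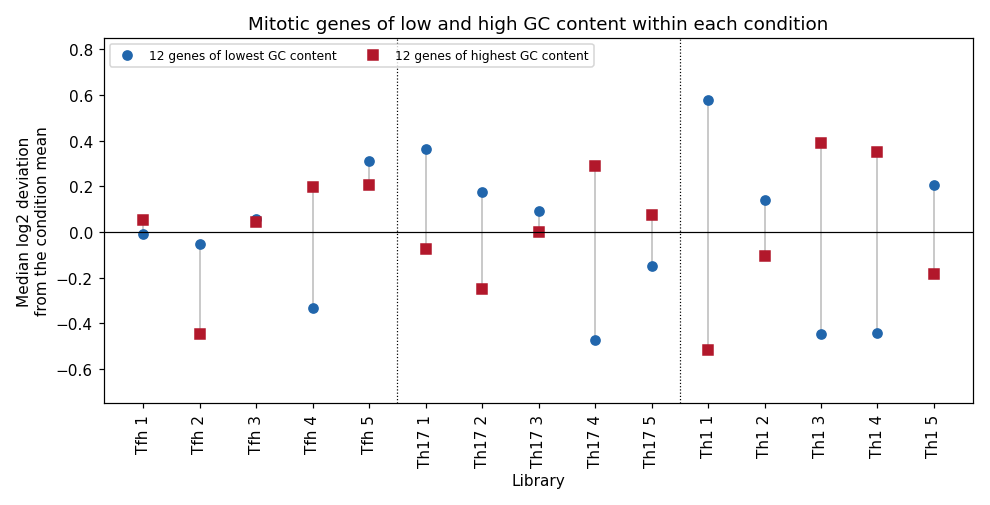
Median log2 deviation from the condition mean in each library for the 12 members of lowest exonic GC content (blue circles) and the 12 of highest (red squares), with dotted lines between Tfh, Th17 and Th1. The 2 medians lie on opposite sides of 0 in most libraries and are farthest apart in Th1 1, at 0.58 and -0.52.

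Lists of other cell cycle genes were counted in the same fits, beside shares over all genes tested of 9.98% lower and 6.8% higher for Tfh over Th17, 25.2% lower and 24.1% higher for Tfh over Th1, and 17.8% lower and 19% higher for Th17 over Th1. Of 83 other mitotic genes, 54 were called lower in Tfh than in Th17, 0 higher and 29 not, with a median log2 fold change of -0.92. Against Th1, 59 were lower, 3 higher and 21 not, with a median of -0.79. Psrc1, a microtubule regulator, averaged 18.4 ± 5.88 CPM in Tfh, 24.9 ± 7.70 CPM in Th17 and 199.97 ± 48.6 CPM in Th1 (SD, n = 5 each), with a log2 fold change of -3.43 ± 0.26 (SE, edgeR adjusted p = 4.54e-09) for Tfh over Th1 and -3.004 ± 0.26 (SE, edgeR adjusted p = 3.15e-08) for Th17 over Th1. Cenpw, a centromere protein, averaged 11.9 ± 2.71 CPM in Tfh, 22.5 ± 4.43 CPM in Th17 and 59.3 ± 15.1 CPM in Th1 (SD, n = 5 each) and had a log2 fold change of -2.31 ± 0.22 (SE, edgeR adjusted p = 7.76e-08) for Tfh over Th1. Iqgap3, an IQGAP family protein, averaged 9.38 ± 5.02 CPM in Tfh, 30.9 ± 6.68 CPM in Th17 and 32.6 ± 9.86 CPM in Th1 (SD, n = 5 each), with a log2 fold change of -1.69 ± 0.32 (SE, edgeR adjusted p = 0.00119) for Tfh over Th17. Lmnb1, a nuclear lamin, was higher in Tfh than in Th1, at 199 ± 48.6 CPM against 70.5 ± 8.14 CPM (SD, n = 5 each). Among 16 subunits and regulators of the anaphase-promoting complex that were tested, 4 were lower, 0 higher and 12 not called for Tfh over Th17, and 7 were lower, 0 higher and 9 not called for Tfh over Th1. Of 12 cohesin genes, 1 was called lower in Tfh than in Th17, near the share over all genes, and 11 were not called. It was Rad21, the cohesin kleisin, at -0.52 ± 0.13 (SE, edgeR adjusted p = 0.00994). Against Th1, 1 cohesin gene was lower, 2 higher and 9 not called, with a median log2 fold change of 0.01. Rad21 was the lower one, at -0.72 ± 0.13 (SE, edgeR adjusted p = 0.000186). Stag1, a cohesin subunit, was higher in Tfh at 0.60 ± 0.15 (SE, edgeR adjusted p = 0.00346), and so was Esco1, a cohesin acetyltransferase, at 0.87 ± 0.34 (SE, edgeR adjusted p = 0.0428).

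Of 22 genes for MuvB, DREAM, NF-Y, E2F and MYBL2 factors, 6 were lower in Tfh than in Th17 and 16 not called, with a median log2 fold change of -0.29. E2f7, a repressor of the E2F family, averaged 21.9 ± 6.11 CPM in Tfh, 48.1 ± 5.44 CPM in Th17 and 23.9 ± 5.10 CPM in Th1 (SD, n = 5 each) and differed by -1.13 ± 0.20 (SE, edgeR adjusted p = 0.00065) for Tfh over Th17. Mybl2, a partner of MuvB, averaged 13.7 ± 3.19 CPM in Tfh, 26.5 ± 6.47 CPM in Th17 and 19.3 ± 6.07 CPM in Th1 (SD, n = 5 each) and differed by -0.96 ± 0.24 (SE, edgeR adjusted p = 0.00873). Against Th1, 5 of the 22 were lower, 3 higher and 14 not called, with a median of -0.08, so the count of lower genes was near the share of 25.2% over all genes. Of 40 G1/S and replication genes, 29 were lower in Tfh than in Th17, 0 higher and 11 not called (median -0.73), and against Th1 19 were lower, 4 higher and 17 not called (median -0.42). Rrm2, a ribonucleotide reductase subunit, averaged 161 ± 42.1 CPM in Tfh, 392 ± 44.3 CPM in Th17 and 257 ± 19.6 CPM in Th1 (SD, n = 5 each). Mcm6, of the replicative helicase, was higher in Tfh than in Th1, at 566 ± 58.4 CPM against 384 ± 26.6 CPM, with a log2 fold change of 0.56 ± 0.10 (SE, edgeR adjusted p = 0.00016). For Th17 over Th1, 14 of these 40 genes were higher and 2 lower (median 0.33), among them Mcm3 at 1.10 ± 0.14 (SE, edgeR adjusted p = 4.28e-06) and the D cyclin Ccnd2 at -1.22 ± 0.10 (SE, edgeR adjusted p = 2.11e-08). In the same comparison the 83 other mitotic genes gave 9 lower, 8 higher and 66 not called (median 0.02).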

How the data were processed

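Messenger RNA of sorted mouse CD4 T cells was sequenced in 15 libraries, 5 for each of Tfh, Th17 and Th1, made with the Lexogen SENSE kit from 100 ng of RNA, per the labels' protocols. The authors deposited raw counts of reads per gene for 27179 Entrez identifiers. Per the submitters' processing notes, STAR 2.7.2b, featureCounts 1.6.4 and the mm10 genome were used. The sources used here name no annotation, strand setting or handling of reads with several matches, so counts of overlapping genes and of genes with near-identical copies are uncertain. All 15 single-library files equalled the columns of the series table. Names came from RefSeq (GRCm38.p6) for 25275 identifiers and from GENCODE vM21 for 18, and 1886 had none. Named genes held 98.2% of counts.

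Libraries held 4871468 to 25200382 counts. Groups follow the condition label. The labels do not say whether replicates came from different animals or cultures, and p-values then measure only the spread between the libraries at hand, part or all of which may be technical. Chi-square per gene between libraries of 1 condition was at least 9.39, so none was a duplicate. In R 4.3.3, edgeR 4.0.16 fitted all 15 libraries with TMM factors, a filter at 10 counts (filterByExpr by condition, 12591 genes kept) and the robust quasi-likelihood test, with Benjamini-Hochberg adjustment over all genes and calls at adjusted p under 0.05. The script was tested on simulated data. Alternatives were relative log expression factors, library size alone, no filter, a filter at 50 counts, DESeq2 1.42.0, limma-voom 3.58.1, the compared conditions alone, a replicate block, a loess correction for exonic GC content in each library (with and without the block) and leaving out each library. GC content was known for 91.6% of the genes.

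The 48 genes and the other lists were chosen with earlier results of these data known. All 48 may be named. Values in every library are given for 14 genes set by the analysis plan (Cdk1, Ccnb1, Cdc20, Bub1, Aurka, Aurkb, Plk1, Birc5, Cenpa, Kif11, Anln, Top2a, Mki67 and Foxm1), for the 3 largest and 3 smallest fold changes of each comparison and for genes not called where most were. In other lists, at most 3 called genes per direction with the largest fold changes and a mean of at least 10 CPM were eligible. Promoter windows came from RefSeq (GRCm38.p6), and those printed were taken from the 14.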

Additional observations from a re-analysis of the deposited data

Results flagged for a closer look

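Among the 144 sets of 5 libraries (48 genes in 3 conditions), 7 held a library far from the other 4 by Dixon's gap test, where chance flags about 1 in 20. In Tfh 2, Birc5 stood at 54.5 CPM, against 91.5 to 101 CPM in the other Tfh libraries, and Cenpa at 111.9 CPM, against 146 to 159 CPM. In Tfh 5, Bub1b stood at 89.2 CPM, against 46.0 to 57.5 CPM, and Cenpe at 96.9 CPM, against 59.2 to 67.8 CPM. Kif4 reached 55.5 CPM in Tfh 1, against 37.5 to 40.6 CPM in the other Tfh libraries. Aurkb reached 254 CPM in Th17 4, against 221 to 231 CPM, and Anln 65.0 CPM in Th17 3, against 55.7 to 57.6 CPM in the other Th17 libraries. All of these were called lower in Tfh than in Th17 and than in Th1.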

How the results depend on the processing

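No called log2 fold change of the 48 genes turned round in the 25 alternatives. Of 3600 values, 3471 stayed on their side of the threshold, 66 lost the call and 63 gained it. Leaving out 1 library at a time gave 43 to 46 genes lower and 0 higher for Tfh over Th17, 40 to 44 lower and 0 higher for Tfh over Th1, and 1 to 3 lower and 2 to 6 higher for Th17 over Th1. For Th17 over Th1, DESeq2 called 4 lower, the correction for GC content 5 lower and 9 higher, and that correction with the replicate block 5 lower and 10 higher. The cause of these changes was not tested. The correction with the block also called 48 genes lower for Tfh over Th17 and 47 lower for Tfh over Th1, Smc4 among them in both. The labels do not say what a replicate number shares, and not every same-numbered pair correlated over 0.1, so the numbers were not taken to pair the libraries. Correlations of same-numbered pairs ran from 0.01 to 0.46 (mean 0.15) for Tfh over Th17, -0.01 to 0.44 (mean 0.14) for Tfh over Th1 and -0.10 to 0.57 (mean 0.17) for Th17 over Th1. The means for other pairs were -0.04, -0.03 and -0.04. Deviations from the condition mean were correlated, which ties these means to those of same-numbered pairs, so the contrast adds no evidence. In the same comparisons, 5, 4 and 4 of 10 libraries correlated best with their own number, a hint from the data and not from the design. With the replicate block alone, 46 genes were lower for Tfh over Th17, 44 for Tfh over Th1, and 2 lower and 7 higher for Th17 over Th1. The genes gained with the block were Cdc25b for Tfh over Th17 (adjusted p = 0.0219), Ccnf and Spc25 for Tfh over Th1 (adjusted p of 0.0129 and 0.0154), and Nuf2 and Spc25 for Th17 over Th1 (adjusted p of 0.0151 and 0.0249), and no call was lost. Over all genes it raised the calls for Tfh over Th17 to 2941, against 2113 without it. Scaling moved the median of all genes by at most 0.06 on the log2 scale. The lowest count of any of the 48 genes was 72.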
